A study of Bos taurus with 2 samples.

Results

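Complex I of the respiratory chain was examined in RNA from bovine milk whey through 38 subunit names and a separate group of 5 names. The subunit names are NDUFA, NDUFB, NDUFC, NDUFS and NDUFV followed by a digit, and 79 probes of the array carry them. The separate group holds NDUFAB1 and the assembly factors NDUFAF1 to NDUFAF4, with 6 probes. Together these 43 genes are part of 15714 named genes on the array. NDUFA4, now assigned to complex IV, and its paralog NDUFA4L2 meet the naming rule and are counted among the 38.

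The study set the pellet of a whey spin, which the submitters call exosome, beside the supernatant above it. Exosomes are small membrane vesicles that cells release. Whey was spun at 10000 g for 90 min in the cold, the supernatant was taken off, and the pellet was resuspended and spun again in 2 washes, which the supernatant did not receive. That speed is the one in the labels and is low for pelleting small vesicles, although the title of the supernatant sample calls the step ultracentrifugation. The labels thus do not settle the speed, and how far each fraction holds or lacks small vesicles is uncertain. Both fractions came from the same 3 Holstein raw milks, whose RNA was mixed equally, and 100 ng of each pool was labelled with the green dye Cy3 for 1 array per fraction. Neither the cows' age nor their stage of lactation is stated in the labels, and no single milk was measured on its own. With 1 array per fraction there is no replicate check, no test was run, and every value below describes these 2 pools.

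Complex I, the NADH:ubiquinone oxidoreductase, is the entry point of the respiratory chain in the inner mitochondrial membrane. It passes electrons from NADH through a flavin and a row of iron-sulfur clusters to ubiquinone and pumps protons across the membrane. Core subunits carry the catalysis or sit in the proton-pumping arm, accessory subunits surround them, and assembly factors help build the enzyme without staying in it. Most subunits are encoded in the nucleus and the rest in mitochondrial DNA. In the lactating mammary gland the secretory epithelium is rich in mitochondria, and its messenger RNA can leave the cell in vesicles.

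Detection follows the scanner software's call of a signal well above background, and 1 such probe is enough for its gene. The exosome array had 25524 of 43652 probes with this call (58.5%) and the supernatant array had 5734 (13.1%), the lowest of them at 11.3 and 9.04 intensity units. The median named gene measured on both arrays was 3.51 higher on the log2 scale (11.4-fold) on the exosome array, while the 8 spike-in probes measured on both differed by 2.28. Differences are therefore given relative to the median gene, a value that no constant scaling of an array moves. Of the markers of mammary secretory epithelium, such as caseins, 7 of 7 were detected on both arrays. Their summed signal, adding the brightest probe of each gene on each array, was 1793510 in the exosome and 27598 in the supernatant. PAEP alone gave 24542 of the supernatant sum. The sums below follow the same rule. Of the leukocyte markers 3 of 6 were detected on both, with sums of 1438 and 757, and ITGAM, CD3E and CXCR2 on neither. Of those detected, PTPRC was higher in the supernatant, at 493 and 685, while CD14 and CD68 were higher in the exosome. Of the other markers, 2 of 4 for myoepithelium, 1 of 2 for erythrocytes and none of 3 for adipocytes were detected in the supernatant. In that order, their sums in the exosome and supernatant were 591 and 101, 23460 and 1140, and 27.3 and 16.0. The erythrocyte sums came almost wholly from HBA, at 23456 and 1138, while HBB was detected on neither array. The part of other cells in the complex I signals was not tested.

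All 38 subunit names were detected on the exosome array, where 69.4% of all named genes were, so none was detected on neither array, as 29.6% of all named genes were. On the supernatant array 18 of the 38 were detected, or 47.4%, beside 23.0% of all named genes, and the other 20 were detected on the exosome array alone, as were 47.5% of all named genes. Among genes detected on the exosome array, 31.6% of all named genes were also detected in the supernatant. The subunit probes were bright on the exosome array, with a median of 3623 over the 73 detected ones, beside 184 over 20854 detected probes of named genes. The part of this brightness in the detection counts was not tested. In such bulk pools, fewer vesicles with a transcript and less of that transcript per vesicle cannot be told apart.

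The 18 subunit genes measured on both arrays had a median difference of 4.32 on the log2 scale above the median gene, with a range from -3.71 to 6.56 and quartiles of 3.05 and 5.50. At a size call of 2-fold, 15 of the 18 stood above the median gene, 2 below and 1 in between, whereas 37.3% of all named genes measured on both stood that far above and 36.6% that far below. On the unscaled signals 17 of the 18 were brighter in the exosome by 2-fold or more, beside 83.4% of all named genes, and the median subunit gene differed by 7.83 (227-fold). The 2 genes below were NDUFA6 and NDUFA4L2, and the gene between was NDUFC1. NDUFA3 counted as above through the mean of probes that disagree, given further below. Leaving out NDUFA4 and NDUFA4L2, which are not complex I subunits in the current assignment, 17 of 36 names were detected in the supernatant and the median was 4.55. These figures rest on signals that the array resolves to about 0.18 on the log2 scale, the SD between repeat spots of 9 probes, while probes of 1 gene differed more, with an SD of 1.72 over 533 genes. With signals of at least 4 times the lowest detected one, 7 of the 18 genes remained measured, and their median was 3.30. The part of the exosome brightness of these genes, and of supernatant signals near the lowest detected one, in the differences was not tested.

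**Figure D1:**
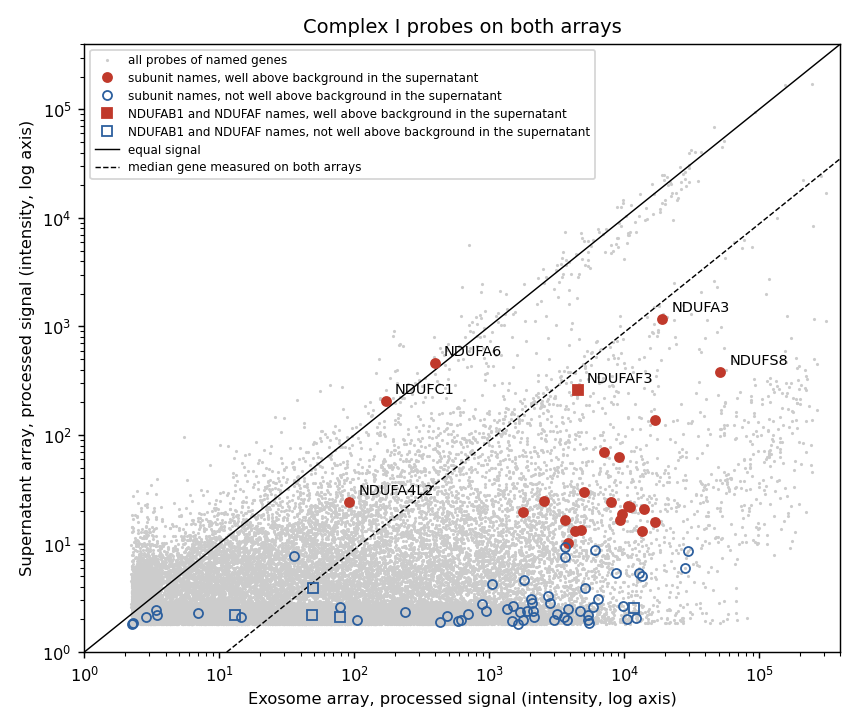
Processed signal of each probe on the exosome array (horizontal, log axis) and the supernatant array (vertical, log axis), for all probes of named genes in grey and complex I probes in colour, filled where the supernatant signal was well above background. Most filled points lie below the dashed line of the median gene (11.4-fold), and 1 probe each of NDUFA6 and NDUFC1 lies at the line of equal signal.

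The clearest departures came from single probes, so the probe sequences are shown first where probes of 1 gene disagreed. The stretches are bases 31 to 60 of the 60-base probes as the array file gives them, 5′ to 3′, each named by the base of the transcript at which the probe starts. Capitals mark AATAAA or ATTAAA, the letters of the usual polyadenylation signal, and a run of at least 4 A at the probe's end. The first set pairs probes designed from a RefSeq accession with probes of the same gene name designed from another accession, for 5 of the genes detected in the supernatant. NDUFA3 and NDUFA5, also detected there, have such other probes too, which were detected on neither array and are not shown.
NDUFA6, base 349, RefSeq: gcacgacccgtgaaatcactcagtggAAAA
NDUFA6, base 727, other: tccctagtggctcaaactgcaaagaatctg
NDUFC1, base 329, RefSeq: tgtcaagtcagcatttgtgttttacatgat
NDUFC1, base 663, other: ctgaacaactaatacaaATTAAAtcccatt
NDUFA7, base 366, RefSeq: cttcttcctccttggactccttgattccct
NDUFA7, base 1582, other: accatgatcttgaacttatcagaattttga
NDUFA11, base 469, RefSeq: gacctcgggcaggttgaaactcttctAAAA
NDUFA11, base 269, other: ttaggcacctactgcacgtccacctcgcta
NDUFA1, base 213, RefSeq: gtgtcaatgggtttggagaacattgattaa
NDUFA1, base 315, RefSeq: tattgtgtagcatgcattgtattttgtagt
NDUFA1, base 411, other: gatttcctttcattgtaggaaaaaagggtt

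The accessory subunit NDUFA6, a member of the LYR protein family at the matrix arm, was the gene furthest below the median gene, and this rested on 1 of its 2 probes. The probe at base 727 gave 395 ± 39.5 in the exosome and 456 ± 45.7 in the supernatant, where ± is the scanner software's error for the spot, a difference of -0.21 ± 0.20 on the log2 scale. The probe at base 349 gave 9841 in the exosome and 2.66 in the supernatant, not well above background. The signals of the base 727 probe thus differed by about their scanner error, while the base 349 probe was bright in the exosome alone. Whether the signal of the base 727 probe comes from NDUFA6 alone, or at all, was not tested, so the gene's value may not describe NDUFA6. In the array's coordinates (build Btau_3.1) the base 727 probe lies at chr5:120201031-120201090 and the base 349 probe at chr5:120203333-120203392, both on the minus strand, with 2242 bases between them.

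NDUFC1, a small accessory subunit of the membrane arm, showed the same split between its probes. Its RefSeq probe gave 4328 and 13.2, a difference of 8.36 ± 0.30 and 4.85 above the median gene. Its other probe gave 172 ± 17.4 in the exosome and 205 ± 20.6 in the supernatant, a difference of -0.26 ± 0.21 and -3.76 relative to the median gene. The gene mean of 0.55 lies between these values and describes neither probe. Whether the signal of the other probe comes from NDUFC1 alone, or at all, was not tested. The RefSeq probe lies at chr17:19687556-19687615 and the other at chr17:19685003-19685062, both on the plus strand and 2493 bases apart.

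Over all subunit names, 67 of 79 probes came from a RefSeq accession and 12 from another. All 67 RefSeq probes were detected in the exosome and 21 (31.3%) in the supernatant, beside 64.9% and 13.5% of the RefSeq probes of all named genes. Of the 12 others, 6 were detected in the exosome and 2 in the supernatant, those of NDUFA6 and NDUFC1, beside 48.2% and 10.8% of such probes of all named genes. The 6 that were not detected in the exosome gave 2.24 to 7.0 there. Among them were the probes of NDUFA11 at base 269 and of NDUFA1 at base 411 shown above, although other probes of both genes were bright. For NDUFA7 the probe at base 1582, 1158 bases from the RefSeq probe in the build, gave 35.6 and 7.68 beside 16867 and 15.8. The array places 2 of the 12, 1 each for NDUFA5 and NDUFB1, on the strand opposite to the gene's RefSeq probe, and neither was detected in the exosome. Whether the 12 probes lie in an exon, an intron or an untranslated region was not analysed here.

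**Figure D2:**
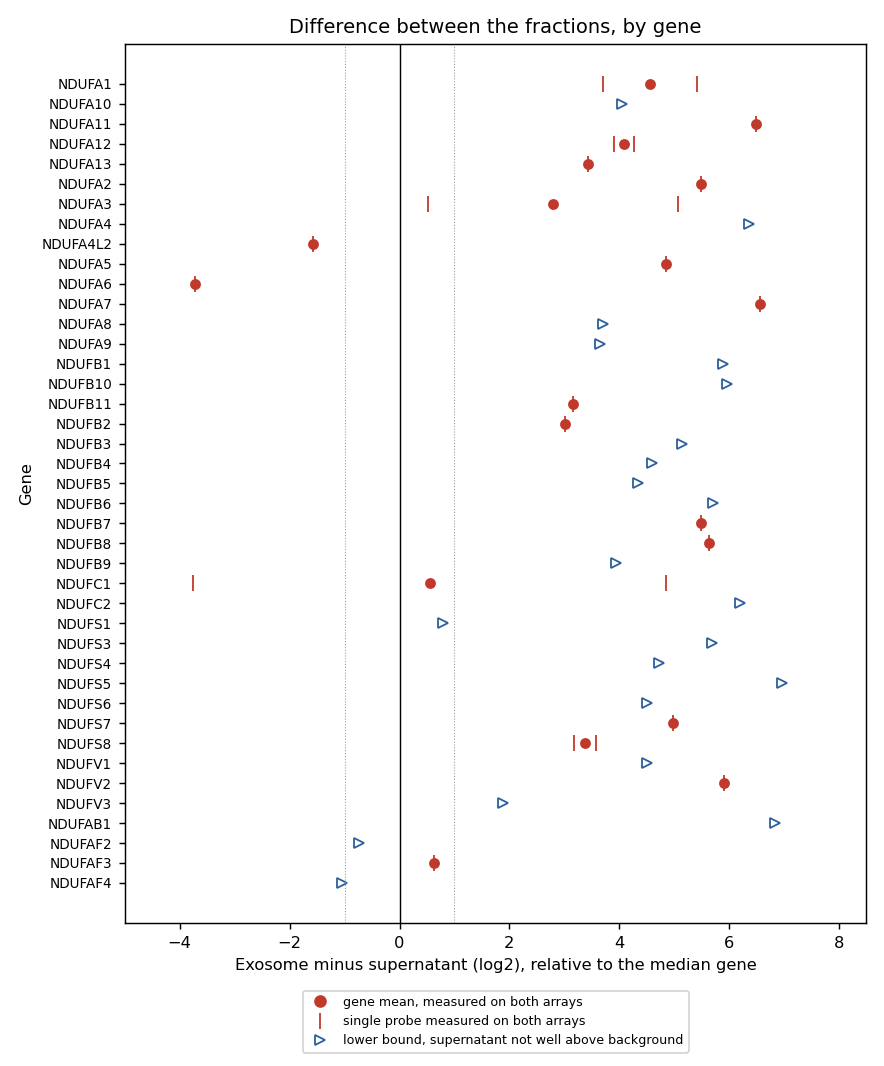
Difference between the arrays for the complex I genes reported singly that were detected on the exosome array, log2 exosome minus supernatant relative to the median gene (horizontal), with circles for gene means, ticks for single probes measured on both arrays, triangles for lower bounds and dotted lines at 2-fold. Most genes lie between 2.79 and 6.56, the NDUFC1 ticks lie at -3.76 and 4.85, and NDUFA6 lies at -3.71. A bound is averaged over the detected probes of its gene.

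The 7 nuclear core subunits, which carry out the catalysis, were all detected in the exosome, and NDUFV2, NDUFS7 and NDUFS8 also in the supernatant. NDUFV2, an iron-sulfur subunit of the NADH-oxidising module, gave 14137 and 20.7 with its probe at base 812 and stood 5.91 above the median gene. Its probe at base 715 gave 5108 and 3.86, the latter not well above background. NDUFS7, which holds the last cluster before ubiquinone, gave 4765 and 13.4 at base 676 and stood 4.97 above. Its probes at bases 458 and 614 gave 2132 and 3027 in the exosome and 2.13 and 1.96 in the supernatant, so only the probe nearest the transcript's end was detected there. NDUFS8, which carries a pair of iron-sulfur clusters in the connecting module, was measured by both of its probes. They gave 2540 and 24.9 at base 419 and 51623 and 380 at base 818, differences of 6.67 ± 0.24 and 7.09 ± 0.20, and the gene stood 3.38 above the median gene. The signals of both probes were higher in the exosome and the differences lie within 0.41 of each other.

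The other core subunits were not well above background in the supernatant and have only a lower bound, the exosome signal over the higher of the supernatant signal and 9.04. For a gene with several detected probes, the bound here and below is their mean on the log2 scale. Single probes of such a gene can have smaller bounds. NDUFV1, the flavin-binding subunit, gave 617 and 8756 in the exosome and 1.96 and 5.34 in the supernatant. Its mean bound was 257-fold, from probe bounds of 68.3-fold and 969-fold. NDUFS3, of the connecting module, gave 4742 and 5862 in the exosome and 2.39 and 2.59 in the supernatant, a mean bound of 583-fold. NDUFS1, the largest subunit of the NADH-oxidising module, was the dimmest case, with 14.4 to 1500 over 5 probes in the exosome and 1.89 to 2.66 in the supernatant. Its mean bound was 19.5-fold, from probe bounds of 1.59-fold to 166-fold. These folds are unscaled and are to be read beside the 11.4-fold of the median gene.

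By family, 10 of 14 NDUFA names (71.4%) and 4 of 11 NDUFB names (36.4%) were detected in the supernatant, beside 23.0% of all named genes. So were 1 of 2 NDUFC (50%), 2 of 8 NDUFS (25%) and 1 of 3 NDUFV names (33.3%). The NDUFS share lies near that of all named genes. All of these names were also detected in the exosome. The 31 names outside the core numbered 15 in the supernatant, with a median of 4.09 above the median gene, beside 4.97 for the 3 core genes. These shares rest on few genes and the difference between families was not tested.

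NDUFA7, NDUFA11 and NDUFA2 stood furthest above the median gene among the NDUFA names measured on both arrays, in an order that depends on the detection rule. NDUFA7 gave 16867 and 15.8 and stood 6.56 above the median gene. NDUFA11, a membrane-arm subunit, gave 13434 and 13.1 and stood 6.50 above. NDUFA2, a subunit with a thioredoxin-like fold, gave 11009 and 21.6 and stood 5.49 above. With the weaker detection flag NDUFA7 stood at 2.73, and without a filter on dim probes NDUFA7 stood at 3.22 and NDUFA11 at 2.41, since their probes from other accessions then count, while NDUFA2 stood at 5.59 and 6.08. These genes were low in the supernatant, close to the lowest detected signal of 9.04, and bright in the exosome. NDUFA1, a small membrane subunit encoded on the X chromosome, was measured at bases 213 and 315, with 10735 and 22.3 and with 9158 and 62.1. The probes differed by 8.91 ± 0.25 and 7.20 ± 0.21 between the arrays, and the gene stood 4.55 above. NDUFA12 gave 5031 and 29.7 at base 424 and 3623 and 16.5 at base 455, and stood 4.09 above, its probes sharing 29 bases.

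NDUFA13, also known as GRIM-19, gave 16942 and 138 at base 486, a difference of 6.94 ± 0.21, and stood 3.43 above the median gene. At base 278 it gave 1807 and 4.59, the supernatant value not well above background. NDUFA4L2 gave 92.1 and 24.2, a difference of 1.93 ± 0.24, and stood at -1.58 relative to the median gene. It was thus brighter in the exosome in absolute terms while lying below the typical gene. Of the names detected in the exosome alone, NDUFA4 had one of the largest bounds, a mean of 930-fold over 4 probes. They gave 486 to 29657 in the exosome against 2.08 to 8.55, with single bounds from 53.7-fold to 3281-fold.

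Among the NDUFB names, membrane-arm accessory subunits, the 4 genes measured on both arrays all stood above the median gene. NDUFB8 gave 9291 and 16.4 and stood 5.64 above, and NDUFB7 gave 9585 and 18.7 and stood 5.50 above. NDUFB11, also encoded on the X chromosome, gave 7047 and 69.1 and stood 3.17 above. NDUFB2 gave 1774 and 19.4 and stood 3.01 above. The other 7 were detected in the exosome alone, with bounds from 174-fold for NDUFB9 to 710-fold for NDUFB10, whose probe gave 6422 and 3.06. NDUFB9 came near the threshold, with a probe at 3668 and 9.36 that the software did not call. NDUFC2, the partner of NDUFC1 in the membrane arm, gave 5409 and 10478 in the exosome and 1.96 and 2.03 in the supernatant. Its mean bound was 833-fold. NDUFS5, an intermembrane-space subunit, had the largest bound of all subunit names, at least 1420-fold, with 12838 and 5.33. Of the other NDUFB names, NDUFB1 had a bound of 671-fold, NDUFB6 of 595-fold, NDUFB3 of 400-fold, NDUFB4 of 276-fold and NDUFB5 of 229-fold. The matrix-arm subunits NDUFS4 and NDUFS6 had bounds of 301-fold and 256-fold, and NDUFA8, NDUFA9 and NDUFA10 lay between 143-fold and 188-fold. Over the 20 names with a bound the range was 19.5-fold to 1420-fold, and the smallest after NDUFS1 was the 41.8-fold of NDUFV3. Their median was 286-fold, beside 13.9-fold over all named genes detected on the exosome array alone. A bound grows with the exosome signal by its definition, and the part of exosome brightness in this gap was not tested.

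NDUFAB1, the mitochondrial acyl carrier protein that is both a subunit of complex I and a part of fatty acid synthesis, gave 11752 in the exosome and 2.57 in the supernatant, at least 1300-fold. With it, 4 of the 5 names of the separate group were detected in the exosome (69.4% of all named genes) and 1 in the supernatant (23.0%). The assembly factor NDUFAF3 gave 4555 and 258, a difference of 4.14, and stood 0.64 above the median gene. NDUFAF2 gave 48.9 and 78.0 in the exosome and 2.20 and 2.09 in the supernatant, a mean bound of 6.83-fold. NDUFAF4 gave 49.7 and 3.93, at least 5.50-fold. NDUFAF1 was not well above background on either array, at 13.2 and 2.21. The bounds of NDUFAF2 and NDUFAF4 lie under the fold of the median gene and so place neither gene above or below it. Through their accessions 3 more assembly factors could be named, NDUFAF5, NDUFAF6 and NDUFAF7, which the array lists under older names. All 3 were detected in the exosome, and NDUFAF6 also in the supernatant with 1 probe at 119 and 24.9.

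Several subunit transcripts were detected in the supernatant by 1 probe and not by another on the same RefSeq transcript. Both RefSeq probes of NDUFA5 and the NDUFA3 probe at base 232 are shown in part further below. Of these, the NDUFA5 probe at base 304 and the NDUFA3 probe were detected in the supernatant. Neither holds AATAAA or ATTAAA in bases 31 to 60. The stretches of the other probes follow with the same capitals, bases 31 to 60.
NDUFA13, base 278: aggaggcaactgtcatgaaggatgtgccgg
NDUFA13, base 486: agAATAAAcgctttggagactggcAAAAAA
NDUFS7, base 458: acggaggtggctactaccactactcctact
NDUFS7, base 614: tgcggatctggtaccgcaggtagtgctggc
NDUFS7, base 676: ggcggtcAATAAAcccgatcaaccctcaaa
NDUFV2, base 715: ctggcaaaatcccaaaacctgggccgagga
NDUFV2, base 812: gtttggtgtgcaagcaggcctttaatttat
NDUFA3, base 29: accggtgctagtggcatcctttgccattgc
NDUFA3, base 273: ggccccAATAAAtgcgtgaaaaccAAAAAA

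Of 19 subunit transcripts with at least 2 RefSeq probes detected in the exosome, 5 were split in this way, 3 had all such probes detected in the supernatant and 11 had none. In 4 of the 5 (80.0%), those of NDUFA13, NDUFS7, NDUFV2 and NDUFA3, the probe nearest the transcript's end was among those detected, and NDUFA5 was the exception. Over all named genes, with accessions of any kind, 1627 of 5547 transcripts with at least 2 probes detected in the exosome were split. The probe nearest the end was detected in 950 of them (58.4%). Where at least 2 RefSeq probes of a transcript were measured on both arrays, the difference of the measured probe nearest the end minus that of the measured probe nearest the start was -1.71 in NDUFA1, -4.55 in NDUFA3, 0.37 in NDUFA12 and 0.41 in NDUFS8. The pairs of NDUFA3 and NDUFA12 overlap, so they do not span their transcripts. The values went in both directions, and over 478 transcripts of all named genes, with accessions of any kind, the median of that value was 0.03.

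**Figure D3:**
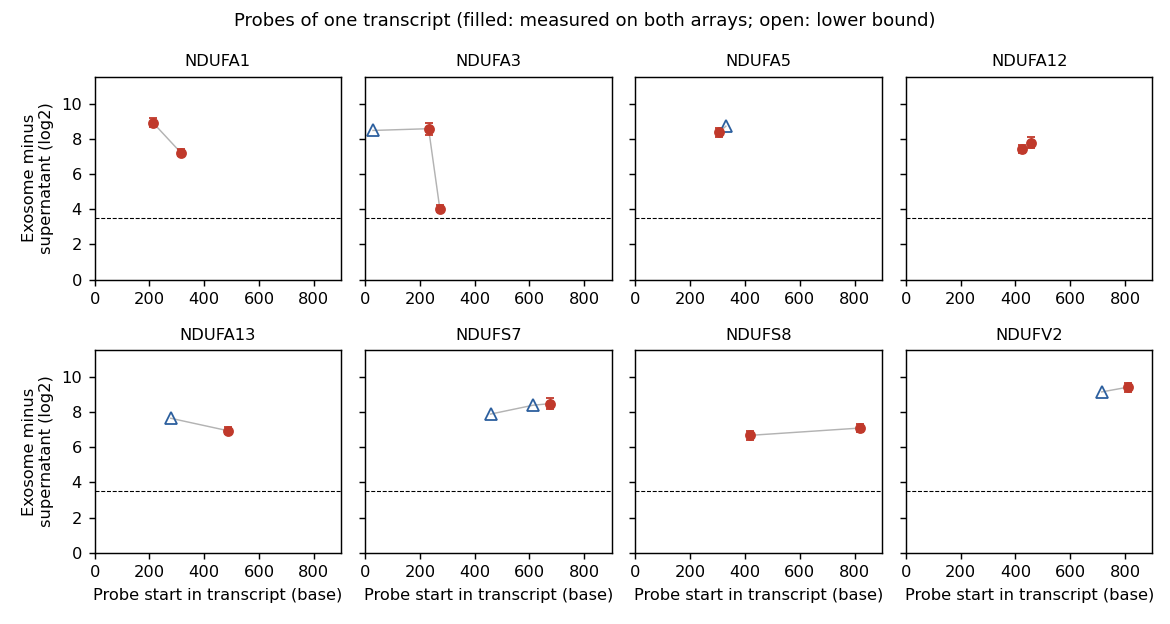
Difference between the arrays, log2 exosome minus supernatant (vertical), against the base at which a probe starts in its RefSeq transcript (horizontal), for 8 subunit genes, with circles for probes measured on both arrays, scanner error as bars, triangles for lower bounds and a dashed line at the median gene (3.51). NDUFA3 drops from 8.57 at base 232 to 4.02 at base 273, and the probes of NDUFS8 lie at 6.67 and 7.09.

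The largest of these 4 values was that of NDUFA3, a small membrane-arm accessory subunit. At base 232 it gave 3821 and 10.1, a difference of 8.57 ± 0.34, and at base 273 it gave 19110 and 1177, a difference of 4.02 ± 0.20. The probe at base 29 gave 3205 and 2.24, the latter not well above background. The probes at 232 and 273 overlap, and the shared 19 bases are in capitals below, for bases 31 to 60 of the first probe and bases 1 to 30 of the second.
NDUFA3, base 232: tgtgaacgcctCTGTTAACAGGGAGCAGCC
NDUFA3, base 273: CTGTTAACAGGGAGCAGCCcccgccccaat
The array's annotation places the base 273 probe at chr5:80801688-80801747 and the base 232 probe at chr18:63534843-63534902 (Btau_3.1, both plus strand), although both were designed from 1 RefSeq transcript. The second probe therefore has a placement outside the gene's other probes, and whether its signal comes from NDUFA3 alone was not tested. Relative to the median gene, the base 232 probe stood at 5.06 and the base 273 probe at 0.52, and the gene mean was 2.79. With the probe brightest in the exosome NDUFA3 stood at 0.26, and with the stricter signal limit at 0.65. Both values lie within 2-fold of the median gene.

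NDUFA5, an accessory subunit of the matrix arm, had the opposite order within its overlapping pair. The probe at base 304 gave 7982 and 24.3, a difference of 8.36, and the probe at base 330 gave 3787 and 1.96, the latter not well above background. They share 34 bases, and the stretches below show the parts that differ, bases 1 to 30 of the first probe and bases 31 to 60 of the second. The capitals mark the first 4 of the shared bases in the first probe and the last 4 in the second, which are different bases of the overlap.
NDUFA5, base 304: agcctttagtggaagagcctccagccAGCC
NDUFA5, base 330: TTAActaacttatctgttgataggagactg
The pair falls on either side of the detection call although most of their bases are the same. Overlapping probes of 1 gene are not independent measurements of it.

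The letters AATAAA or ATTAAA were present in 17 of 79 subunit probes (21.5%) and in 12.7% of all probes, searched as written on the probe's strand. All 17 were detected in the exosome, beside 68.6% of all probes with the letters, and 7 (41.2%) in the supernatant, beside 16 of the 62 subunit probes without them (25.8%). Over all probes the shares detected in the supernatant were 20.7% with the letters and 12% without. With the reverse complement of these letters, held by 5.67% of all probes, the share was 14.2%. A run of at least 4 A ended 6 subunit probes, of which 3 were detected in the supernatant, beside 30.3% of the 1181 probes of the whole array with such an end. No subunit probe held 5 G in a row, while 2.88% of all probes did and 37.7% of those were detected in the supernatant. These shares were not tested, and a match is a description of the probe, not a site in RNA.

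Base composition was similar on both sides of the detection call. The median GC content was 45% for the 23 subunit probes detected on both arrays and 41.7% for the 50 detected in the exosome alone, beside 45% and 43.3% over all probes. Of 13 subunit probes whose placement spans more than 60 bases of the build, as a probe across an exon junction would, all were detected in the exosome, beside 54.8% of such probes of all named genes, and 2 in the supernatant (15.4%), those of NDUFA1 at base 213 and NDUFA5 at base 304. The share was 31.7% for the 63 subunit probes without such a span, and 7.28% and 14.3% in the same order for probes of all named genes.

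**Figure D4:**
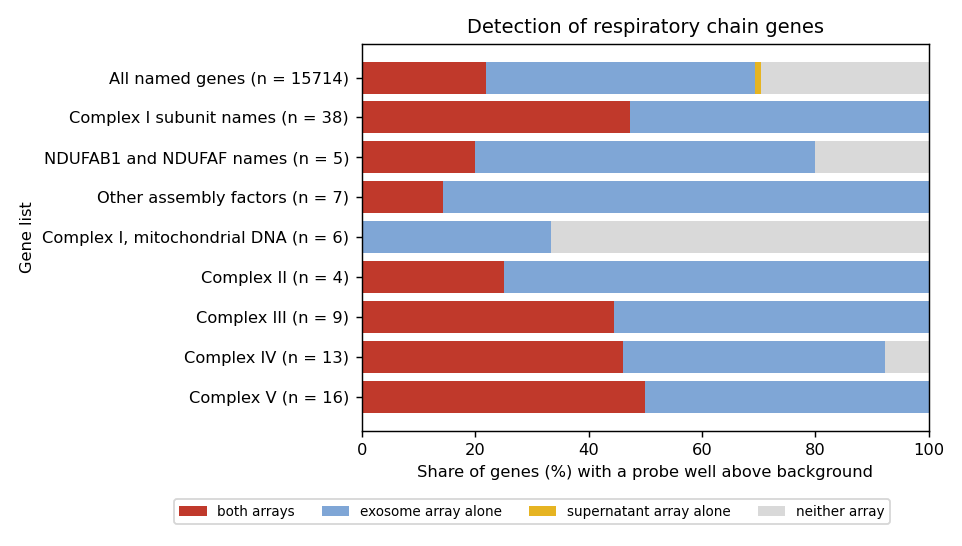
Share of genes in percent (horizontal) detected on both arrays, on the exosome array alone, on the supernatant array alone or on neither, for all named genes and for lists of respiratory chain genes (vertical). All complex I subunit names were detected on the exosome array and 47.4% on both, beside 25%, 44.4%, 46.2% and 50% of the genes of complexes II, III, IV and V.

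The same counts were made for the other complexes of oxidative phosphorylation. Of 42 nuclear genes of complexes II to V, 41 (97.6%) were detected in the exosome and 19 (45.2%) in the supernatant. Over all named genes, the shares to set beside these and the counts below were 69.4% and 23.0%. By the same size call 16 of their 19 measured genes stood above the median gene, with a median of 5.19, beside 15 of 18 and 4.32 for the complex I names. By complex, 1 of 4 genes of complex II (25%), 4 of 9 of complex III, 6 of 13 of complex IV and 8 of 16 of complex V were detected in the supernatant, and 1 of 1, 2 of 4, 5 of 6 and 8 of 8 measured genes stood above. The medians were 5.01 for complex II (1 gene measured), 1.04 for complex III (4 genes), 5.66 for complex IV (6 genes) and 5.99 for complex V (8 genes). The complex I subunits encoded in mitochondrial DNA were mostly not detected. Of 6 with a probe, 2 (33.3%) were detected in the exosome and none in the supernatant. The 2 were ND1, with a mean bound of 3.39-fold, and ND4, with a mean bound of 1.54-fold. Both bounds lie under the 11.4-fold of the median gene and so place neither gene above or below it. ND2, ND4L, ND5 and ND6, detected on neither array, had 1 probe each. Of 7 assembly factors with other names, 7 were detected in the exosome and 1 (14.3%) in the supernatant, ACAD9, which stood at -0.55 relative to the median gene. With few genes in each list and no replicate, none of these differences between lists was tested.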

How the data were processed

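RNA of whey exosome and supernatant pools was measured on 1 Agilent 1-colour bovine array each. The deposited intensity values are Agilent Feature Extraction 10.7.3.1 processed signals, background-subtracted within each array, per the file headers. The deposited log2 table equals the log2 of these signals within 0.001 for 43602 of 43602 single-spot probes (column medians 4.81 and 1.32), so it is neither scaled nor centred. Control and outlier spots (5 and 2, none on complex I probes) were left out, and none was saturated. Each complex I probe had 1 spot.

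Differences are log2 exosome minus supernatant, averaged over a gene's probes well above background on both arrays. A gene bright on 1 array alone has a bound, averaged over its detected probes. Errors are the scanner software's. The calculation was tested on simulated data (Python 3.11.15; limma 3.58.1 for normexp). The number of arrays limits the precision.

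Members and lists were chosen with earlier results of these data known. Named are every gene detected in the supernatant, every gene not detected in the exosome, the core subunits and the 4 largest bounds. The other genes were added by bound or value after these were seen. A gene that the rule takes is counted but not reported here. Names are the array's, and 71 of 85 probes matched the ARS-UCD2.0 table by accession with no symbol differing. The alternatives were other detection calls, probe rules, names, background corrections and scalings.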

Additional observations from a re-analysis of the deposited data

How the results depend on the processing

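With 1 array per fraction, no array could be left out. No paired analysis was possible because each fraction has 1 array. With the weaker detection flag, 32 subunit names were detected in the supernatant and 32 measured on both, 29 stood at least 2-fold above the median gene, the median was 5.47, and 3 of the separate group were detected in the supernatant. With a signal of at least 4 times the lowest detected one, 7 names were detected in the supernatant and 7 measured, 4 stood above and the median was 3.30. Where a gene needed every one of its probes above background, 32 of the 38 subunit names were detected in the exosome. By that rule 9 were detected in the supernatant and 9 measured. The probe brightest in the exosome gave 1 gene below and a median of 4.60. RefSeq probes alone, an alternative chosen after seeing the data, gave 1 below and 4.72. Without a filter on dim probes 37 stood above, 0 below, the median was 6.04, and NDUFA6 turned from -3.71 to 2.91, since its other probe then counts. The median was 3.97 with normexp and 3.85 with quantile normalization. With updated names the separate group had 7 detected in the exosome and 2 in the supernatant. After scaling by the 75th percentile of probes detected on both arrays, 14 names were higher in the exosome by 2-fold or more, and 9 after quantile normalization. The shares of all named genes under these alternatives are not given here. The counts above therefore do not show how the subunit names compare with the whole array under each rule. The cause of the other shifts was not tested.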
